A study of Mus musculus with 2 samples.

Results

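Distal CpG-rich regions called for MAFK are sites that look like CpG islands but lie away from annotated transcription start sites (TSSs). They were taken from the optimal list of MAFK regions in ES-E14, a mouse embryonic stem cell line of strain 129/Ola that the labels call male. A region belonged to the class when its summit was outside exons and more than 1 kb from every GENCODE TSS, and when the 1001 bp around the summit had a GC share of at least 50% and a CpG observed/expected ratio of at least 0.6. The rule found 81 regions among the 16836 regions on chromosomes 1 to 19 and X. These 81 regions made up 72 loci when summits within 1 kb were joined, and 17 of them had another of the 81 within 1 kb, so they are not independent of one another. They were set beside 13561 other distal regions, which met the location rule but not the composition rule, and 747 regions of the same composition within 1 kb of the TSS of a protein-coding transcript.

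MAFK was mapped by chromatin immunoprecipitation with sequencing (ChIP-seq) in 2 biological replicates of 1 group, without a treatment or a genetic change in the labels. Both replicates carry the same biosample label, so the spread between them may be technical. No RNA was measured, so the labelled cell type could not be checked against its markers. The files list regions only, so the depth of neither library is known.

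MAFK is a small MAF protein that binds DNA without an activation domain of its own. It pairs with itself, and then reads a palindrome of MAF half-sites, or with a CNC partner such as NRF2, NFE2 or BACH1, and then reads a MAF half-site joined to a CNC half-site. CpG islands are stretches of unmethylated CpG-rich DNA that mostly mark promoters, and those without an annotated promoter are called orphan islands. In embryonic stem cells many islands near developmental genes carry Polycomb complexes.

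Sequences are printed for the 101 bp around the summits of the 10 regions of highest signal that overlapped the lists of both replicates, each named by the nearest gene that GENCODE calls protein-coding. They are also printed for the 3 other regions with the MAF palindrome T-MARE, because the composite element and T-MARE were rare in the class. All are on the plus strand of mm10, from the RefSeq copy of GRCm38. The first set has the MAF-type and AP-1 elements in capitals. Gclc and Azin1 were the 2 regions with the composite element, an AP-1-type site that runs on into GCA, here read on the opposite strand. Ankrd33b, Irf2bp2 and Pigyl held T-MARE with at most 2 mismatches, as did Azin1. In the order printed, the windows are chr9:77750690-77750790, chr15:38470909-38471009, chr15:31366124-31366224, chr8:126592148-126592248 and chr9:22165106-22165206.

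Gclc: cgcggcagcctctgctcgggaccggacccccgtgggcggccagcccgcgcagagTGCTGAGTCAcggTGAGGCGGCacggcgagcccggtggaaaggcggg
Azin1: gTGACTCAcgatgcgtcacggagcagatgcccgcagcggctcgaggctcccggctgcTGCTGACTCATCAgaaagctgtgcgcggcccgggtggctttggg
Ankrd33b: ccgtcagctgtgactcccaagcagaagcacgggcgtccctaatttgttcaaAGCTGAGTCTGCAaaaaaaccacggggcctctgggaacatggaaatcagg
Irf2bp2: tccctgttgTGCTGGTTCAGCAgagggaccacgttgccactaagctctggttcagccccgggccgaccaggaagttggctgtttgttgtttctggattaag
Pigyl: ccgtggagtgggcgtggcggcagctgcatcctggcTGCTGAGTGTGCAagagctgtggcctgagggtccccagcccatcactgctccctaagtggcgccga

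Bicdl1 and Nlgn3 held an AP-1 element, in capitals, and no MAF-type element. The windows are chr5:115733021-115733121 and chrX:101332640-101332740.

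Bicdl1: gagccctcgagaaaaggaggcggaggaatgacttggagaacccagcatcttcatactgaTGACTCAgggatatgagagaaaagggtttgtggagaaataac
Nlgn3: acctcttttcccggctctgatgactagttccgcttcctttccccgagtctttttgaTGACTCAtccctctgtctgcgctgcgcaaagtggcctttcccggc

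At the other 6 of the 10, the summit was in or beside a transfer RNA (tRNA) gene, whose bases in the window are in capitals. The genes encode tRNA-Asn at Alox5ap, tRNA-Pro at Casp16-ps, tRNA-Glu at Nufip1, tRNA-Cys at Plxdc1, tRNA-Leu at Eef2k and tRNA-Thr at Mrtfb. The genes at Nufip1 and Mrtfb are on the plus strand, and the other 4 on the minus strand. In the order printed, the windows are chr5:149228996-149229096, chr17:23546511-23546611, chr14:76152746-76152846, chr11:97988237-97988337, chr7:120835475-120835575 and chr16:13437299-13437399.

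Alox5ap: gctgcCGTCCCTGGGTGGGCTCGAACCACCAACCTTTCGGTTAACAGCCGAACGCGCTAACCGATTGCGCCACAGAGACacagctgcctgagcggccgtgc
Casp16-ps: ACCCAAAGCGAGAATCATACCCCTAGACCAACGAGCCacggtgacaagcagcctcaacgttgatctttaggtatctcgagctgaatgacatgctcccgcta
Nufip1: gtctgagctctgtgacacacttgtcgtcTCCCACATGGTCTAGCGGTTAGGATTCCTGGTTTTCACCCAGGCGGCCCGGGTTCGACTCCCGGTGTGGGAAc
Plxdc1: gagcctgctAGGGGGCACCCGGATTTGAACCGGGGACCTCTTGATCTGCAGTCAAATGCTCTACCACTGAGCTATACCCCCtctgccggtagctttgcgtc
Eef2k: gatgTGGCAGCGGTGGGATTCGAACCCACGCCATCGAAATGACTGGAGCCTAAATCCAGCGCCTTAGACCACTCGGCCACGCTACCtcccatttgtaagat
Mrtfb: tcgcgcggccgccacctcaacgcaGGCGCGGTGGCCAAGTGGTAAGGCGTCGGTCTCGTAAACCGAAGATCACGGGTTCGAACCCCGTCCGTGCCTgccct

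Many of these summits lay at tRNA genes. RNA polymerase III transcribes such genes from promoter elements inside the gene, among them the box B that TFIIIC binds. Of the 81 distal CpG-rich regions, 24 had their summit within 100 bp of a RefSeq tRNA gene (29.6%, 95% Wilson interval 20.8 to 40.3), and 17 of these summits lay inside the gene. Of the other distal regions, 153 were that close (1.13%, 0.964 to 1.32), and of the CpG-rich promoter regions 19 (2.54%, 1.63 to 3.94). Over the whole list the share was 1.37%. The odds ratio against other distal regions was 36.9 (22.3 to 61.0, Fisher's exact test over regions, two-sided, p = 1.28e-26), and against CpG-rich promoter regions it was 16.1 (8.34 to 31.2, p = 3.84e-15). This comparison was added after the values had been seen. Regions are not independent replicates, so this and the other p-values over regions describe these lists, and the intervals cover counting error only.

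The base composition that chose the regions moves with tRNA genes, and its part in the difference was not tested. Of the 403 tRNA genes on these chromosomes, 75 had a centre that met the composition rule, and 51 of the 75 (68%) had a MAFK summit within 100 bp. Of the 328 that did not meet it, 181 (55.2%) had one. So MAFK summits were found at tRNA genes of either composition, 232 of 403 in all. The 24 regions were nearest to 24 different tRNA genes, of which 16 had another annotated gene of identical sequence. Reads from identical copies cannot be told apart inside the gene, and how the authors placed them is not given in the sources used here.

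The share at tRNA genes was also high in each replicate's own list. By the same rule, replicate 1 had 14 of its 33 regions at a tRNA gene (42.4%) and replicate 2 had 19 of its 55 (34.5%), a mean of 38.5% ± 5.57 (SD, n = 2). Other distal regions of those lists were at one in 2.18% and 1.74% of cases, a mean of 1.96% ± 0.318 (SD, n = 2). The gap between the classes was larger than the spread between the replicates.

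**Figure D1:**
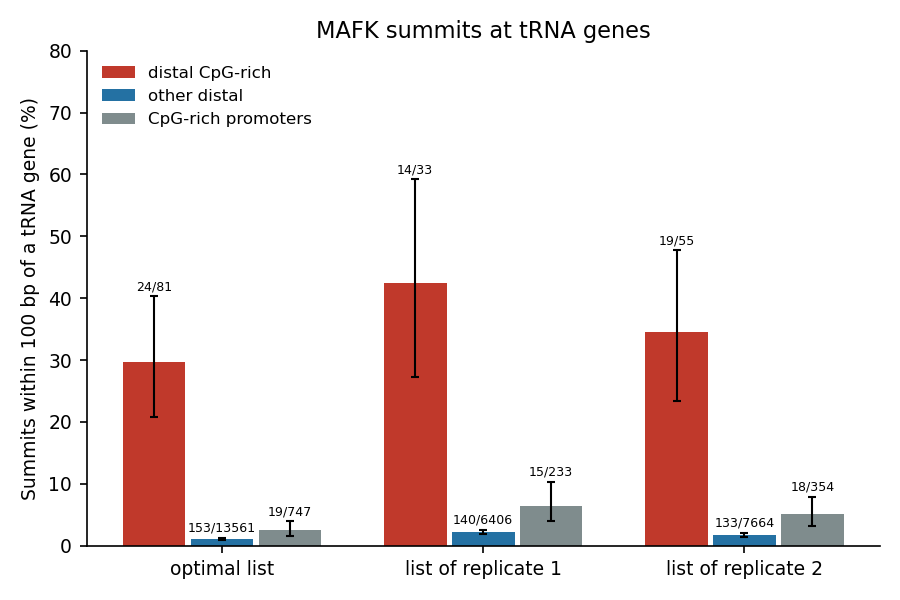
Share of summits within 100 bp of a tRNA gene (percent, with 95% Wilson intervals) for distal CpG-rich, other distal and CpG-rich promoter regions, in the optimal list and in each replicate's list. The counts stand over the bars. Distal CpG-rich regions reached 29.6%, 42.4% and 34.5%, and no other class passed 6.44%.

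The tRNA genes were of many kinds. Those for proline were nearest to 6 of the 24 regions, those for arginine and threonine to 3 each, and those for glutamate, leucine and valine to 2 each. Asparagine, aspartate, cysteine, glycine, methionine and tryptophan had 1 each. The proline group comprised Casp16-ps, Aurkb, Mpzl1, Elf2 and 2 regions near Wnt11. The 3 arginine regions were neighbours near Atp5h on chromosome 11. The letters GGTTCGANNCC of box B, on either strand, were in the window of 8 of the 24 regions and in 0 of the other 57, which allows a share of up to 5.26% there. Box B is part of tRNA genes, by which the 24 were grouped, so this contrast is no separate support. The letters were in 0.656% of other distal regions. Only these exact letters were sought. The 101 bp window can also hold just part of a tRNA gene, as with 37 bases at Casp16-ps. A window without the letters therefore does not show a tRNA gene without box B.

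Signal at the regions next to tRNA genes was mostly in the upper range of the list. The signal value is the authors' own score, whose scale is not stated, so it serves here to rank regions within a list. The 24 regions ran from 4.22 to 136, with a median of 62.2, and 16 of them were among the strongest 25% of the list. The other 57 ran from 4.83 to 301, with a median of 26.03, and 13 were among that 25%. All 24 were also in the conservative list, against 46 of the 57 and 81.8% of the whole list. Overlap with the lists of both replicates was found for 15 of the 24 (62.5%) and for 18 of the 57 (31.6%), against 35.4% of the whole list. The 153 other distal regions at tRNA genes had a median signal of 74.4, which was also above the medians of the 57 regions and of all other distal regions (28.3).

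Away from tRNA genes, the region of highest signal was at Gclc, which encodes the catalytic subunit of glutamate-cysteine ligase, an enzyme of glutathione synthesis. It lay at chromosome 9, 77750574 to 77750882, 3795 bp upstream of the Gclc TSS, and was rank 93 of the list with a signal of 301. In the relaxed lists its signal was 155 for replicate 1 and 142 for replicate 2. The second region, with a signal of 195, was 1450 bp upstream of Bicdl1, a gene for a motor cargo adaptor. There the relaxed lists gave 88.5 and 108 in replicates 1 and 2. Azin1, the gene of an inhibitor of antizyme, was the nearest coding gene of an intergenic region 47203 bp downstream of its TSS, with a signal of 106. A region with a signal of 92.4 lay 33480 bp downstream of the TSS of Nlgn3, a synaptic adhesion gene on X. The nearest gene is a position and does not show a target.

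Among the 6 tRNA regions of the 10, signal was 136 near Alox5ap, 104 near Casp16-ps, 101 near Nufip1, 95.8 near Plxdc1, 86.1 near Eef2k and 85.6 near Mrtfb. The last was the only intronic one of the 10, and the other 9 were intergenic. Its intron belongs to the noncoding gene Gm15738, and it lay 78928 bp downstream of the Mrtfb TSS. Relaxed signals of these 6 regions ran from 39.1 to 71.1 for replicate 1 and from 37.7 to 62.6 for replicate 2.

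The tRNA regions beyond these 6 were spread over the range of signal. The highest were near Aurkb on chromosome 11 (80.4) and near Mpzl1 on chromosome 1 (68.6), both in genes for tRNA-Pro. The regions near Aurkb and Mpzl1 had relaxed signals of 37.9 and 34.5 in replicate 1 and of 40.3 and 38.2 in replicate 2. A region near Fam83a at a gene for tRNA-Met had a signal of 65.7, with 31.8 and 32.0 in replicates 1 and 2. Near Atp5h, the 3 neighbours at genes for tRNA-Arg had signals of 64.8, 52.0 and 4.22. Replicate 1 was higher than replicate 2 at the strongest (46.05 and 15.4). The 2 weaker ones had the same relaxed signals, 37.3 in replicate 1 and 14.5 in replicate 2. The lowest of the others were near Borcs6, at a gene for tRNA-Trp (18.6), and the weaker of the 2 regions near Wnt11 (22.7). Over the 24, the median relaxed signal was 34.5 in replicate 1 and 30.8 in replicate 2.

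**Figure D2:**
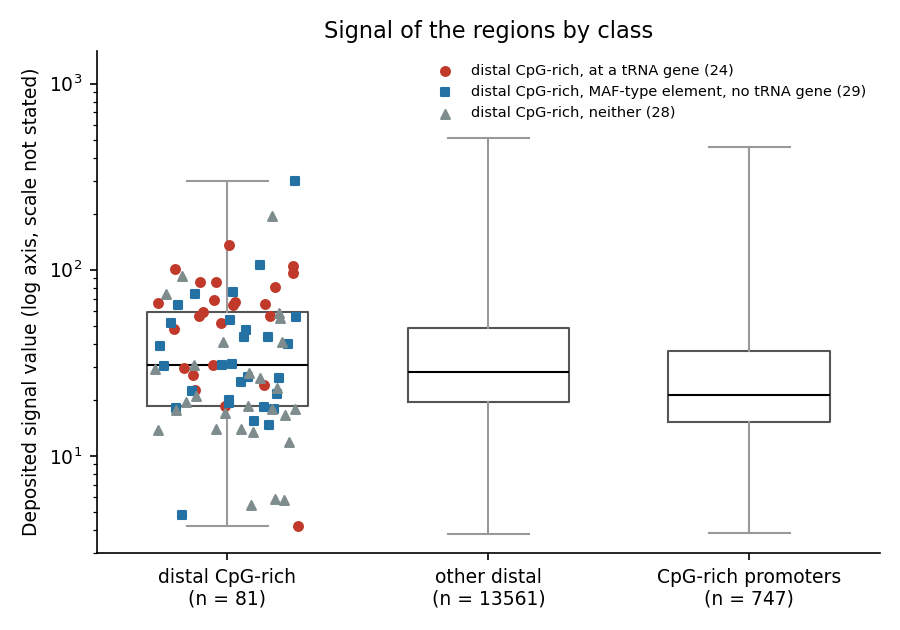
Deposited signal value (log axis) of the 81 distal CpG-rich, 13561 other distal and 747 CpG-rich promoter regions. Boxes show the quartiles, the line in a box the median and whiskers the full range, and points show each distal CpG-rich region by kind. The medians were 30.6, 28.3 and 21.1, and the tRNA regions lay mostly in the upper part.

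Together, the 81 regions had a median signal of 30.6 (4.22 to 301), other distal regions 28.3 and CpG-rich promoter regions 21.1. The strongest 25% of the list by signal held 29 of the 81 (35.8%), against 25.3% of other distal regions and 25% of the whole list by definition. The odds ratio against other distal regions was 1.65 (1.04 to 2.60, Fisher's exact test, two-sided, p = 0.0394). Without summits at tRNA genes the shares were 22.8% and 25.4% (odds ratio 0.867, p = 0.761, Fisher's exact test), and the call was lost in 10 of the 11 other settings tried. Against CpG-rich promoter regions, of which 16.7% were among them, the odds ratio was 2.78 (1.69 to 4.54, Fisher's exact test, p = 1.19e-04).

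Of the 81 regions, 33 (40.7%) overlapped the lists of both replicates, against 35.9% of other distal regions and 35.4% of the whole list. The odds ratio against other distal regions was 1.23 (0.787 to 1.92, Fisher's exact test, p = 0.356), so no difference was detected. CpG-rich promoter regions overlapped both lists in 22.6% of cases (odds ratio 2.35, 1.46 to 3.78, Fisher's exact test, p = 5.93e-04). Replicate 1 listed 37 of the 81 and replicate 2 listed 53, with 4 in the first list alone, 20 in the second alone and 24 in neither. Over the whole list, 44.4% of regions overlapped the list of replicate 1 and 53% that of replicate 2. Against other distal regions, the share in the list of replicate 1 was 45.7% against 45.5% (Fisher's exact test, p = 1), and for replicate 2 it was 65.4% against 52.9% (odds ratio 1.68, 1.06 to 2.67, Fisher's exact test, p = 0.0256). The conservative list held 70 (86.4%), against 82.7% of other distal regions (Fisher's exact test, p = 0.461) and 81.8% of the whole list. These per-list p-values are unadjusted, and the tests were added to the planned ones. All of these lists come from the same 2 replicates, so the overlap is no independent check of the optimal list.

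In the relaxed lists, 79 of the 81 regions had a signal in both replicates, with medians of 16.2 in replicate 1 and 16.6 in replicate 2. Replicate 2 was higher at 49 regions and replicate 1 at 30. Across the 79 regions Spearman's rho was 0.794 and Pearson's r of log2 signal 0.810, given as a description. Neighbouring regions can share 1 relaxed region, as the 2 near Wnt11 did, with 25.1 in replicate 1 and 22.1 in replicate 2. Pairs near Atp5h, Spred2, Rere and Myb also had equal values, so the counts and correlations over the 79 regions hold repeated values.

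**Figure D3:**
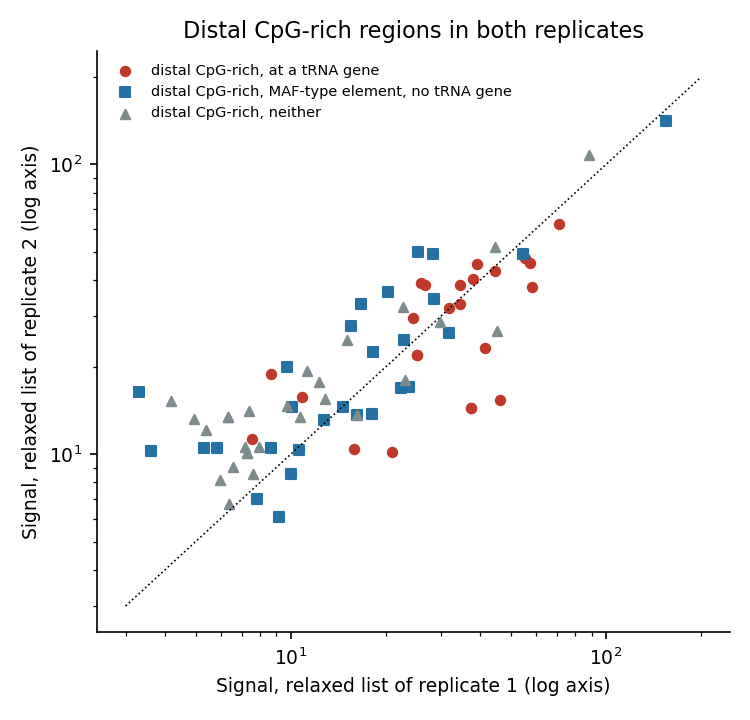
Signal of the 79 distal CpG-rich regions found in both relaxed lists, replicate 1 on the x axis and replicate 2 on the y axis (both log axes), by kind of region, with a dotted line of equal values. Gclc is the point at the upper right, at 155 and 142, and 49 points lie above the line.

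Elements that MAFK dimers are known to bind, and the AP-1 element, were fewer at these summits than at other distal summits. The composite element lay within 50 bp of 2 of the 81 summits (2.47%), of 30.5% of other distal summits and of 28.2% of the whole list. The MAF core TGCTGA was at 22 (27.2%), against 66.2% of other distal summits and 62.8% of the list. The antioxidant response element (ARE) core, TGACNNNGC or TGAGNNNGC, was at 19 (23.5%), against 62.6% and 60.3%. T-MARE was at 4 (4.94%), against 42.0% and 39.2%. The AP-1 element, TGACTCA or TGAGTCA, was at 11 (13.6%), against 39.95% and 37.8%. The elements were searched on both strands, and they overlap, since the composite element holds the MAF core, the ARE core and the AP-1 element.

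The odds ratio against other distal regions was 0.0576 for the composite element (0.0141 to 0.234, Fisher's exact test, adjusted p = 8.73e-10) and 0.0716 for T-MARE (adjusted p = 1.45e-12). It was 0.190 for the MAF core and 0.183 for the ARE core (adjusted p = 9.14e-12 for each, Fisher's exact test), and 0.236 for AP-1 (adjusted p = 1.14e-06). These 5 of the 19 element families passed an adjusted p of 0.05 over the families, all of them lower in distal CpG-rich regions. The 19 include a reversed and a shuffled control sequence. The next family by p was the KLF-type element, at 4.94% against 1.23% of other distal summits (Fisher's exact test, adjusted p = 0.0595). The shuffled control was at 4.94% against 5.88%. The composition that chose the regions differs between these classes, and its part was not tested. In windows 300 bp to either side, the MAF core was in 6.17% of windows of distal CpG-rich regions and 7.37% of those of other distal regions, and the ARE core in 4.32% and 7.22%.

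With the tRNA summits left out of both classes, the shares were still lower. The composite element was then at 3.51% of 57 summits against 30.9%, and the MAF core at 36.8%, compared with 67% (Fisher's exact test, adjusted p = 2.32e-06 and 1.75e-05). In the lists of the replicates, the composite element was at 6.06% of 33 and 3.64% of 55 distal CpG-rich summits, a mean of 4.85% ± 1.71 (SD, n = 2). Other distal summits of those lists held it in 38.2% ± 1.96 (SD, n = 2). Both lists gave 2 such regions.

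**Figure D4:**
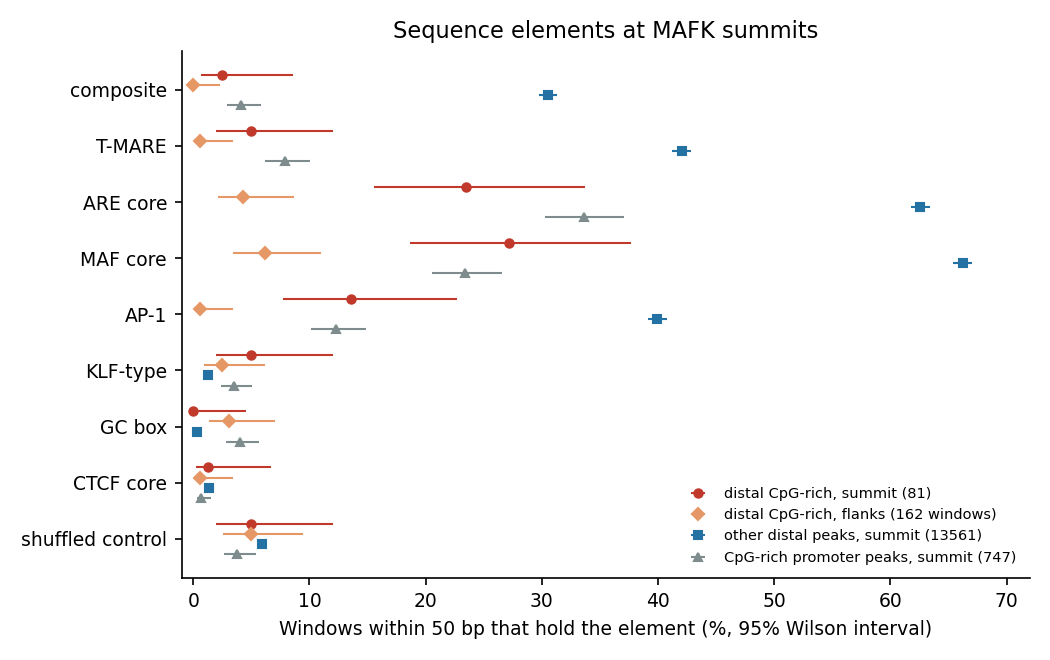
Share of 101 bp windows that hold each element (percent, with 95% Wilson intervals) at distal CpG-rich summits, in their own flanks 300 bp away, at other distal summits and at CpG-rich promoter summits. For the MAF core these were 27.2%, 6.17%, 66.2% and 23.4%.

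Relative to their own flanks, which are CpG-rich too, the summits held more of 3 elements. The tests counted all windows as separate and did not use the pairing of each summit with its flanks. Summits held the MAF core in 27.2% of cases and flanks in 6.17% (odds ratio 5.67, Fisher's exact test, adjusted p = 1.29e-04). The ARE core was at 23.5% against 4.32% (odds ratio 6.79, Fisher's exact test, adjusted p = 1.29e-04), and AP-1 at 13.6% against 0.617% (odds ratio 25.3, adjusted p = 1.92e-04). T-MARE, at 4.94% against 0.617%, did not pass (Fisher's exact test, adjusted p = 0.207). The composite element was in 0 of 162 flanks, which allows a share of up to 1.85%, and its 2 summits did not pass either (Fisher's exact test, adjusted p = 0.419). Of all 2049 sequences of 6 bp that occurred, 1 passed in the same windows: TCAGCA, the MAF core on the other strand (27.2% against 6.17%, Fisher's exact test, adjusted p = 0.0255). The next 9 by p, with their shares of summits, did not pass. They were GGTCTA (13.6%), GCTGAC (16.05%), GAGTCA (18.5%), CAAATC (13.6%), GACGCA (11.1%), CGGCAG (17.3%), GTTCAA (9.88%), GCGAGA (14.8%) and AACCCG (17.3%). In all, 96 had an unadjusted p under 0.05.

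Set against CpG-rich promoter regions, none of the 19 families passed by Fisher's exact test with adjustment, and 0 had an unadjusted p under 0.05. The composite element was at 2.47% against 4.15% (odds ratio 0.585, 0.137 to 2.49), the MAF core at 27.2% against 23.4% and the ARE core at 23.5% against 33.6%. With 81 regions these intervals are wide, and the values do not show that the classes are alike.

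At least 1 MAF-type element, counting the composite element, T-MARE, C-MARE, the MAF core and the ARE core, was found at 34 of the 81 summits (42.0%). C-MARE, a further element searched, was at 0 of the 81, which allows up to 3.70%, and at 1.64% of other distal summits. The flanks of the 81 held at least 1 MAF-type element in 9.26% of windows. Other distal summits held 1 in 82.6% of cases, CpG-rich promoter summits in 46.6% and the whole list in 79.8%. By the most complete element, 2 regions had the composite element, 3 T-MARE, 15 the ARE core and 14 the MAF core alone. At tRNA genes 5 of 24 held such an element and none the composite element, which allows up to 12.5%. Away from them 29 of 57 did.

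Regions that held a MAF-type element away from tRNA genes went on below Gclc and Azin1 with Tnrc18 (signal 75.7) and Nyx on X (74.3), which held the MAF core alone. In replicate 1 these had relaxed signals of 28.3 and 25.4, and in replicate 2 of 49.2 and 49.7. Ascl2 (64.5) and Scd2 (53.5) held the ARE core, and Scrt1 (55.6) and Chd2 (51.5) the MAF core. Though over 1 kb from every GENCODE TSS, the summits at Tnrc18, Scrt1 and Nyx lay 10, 16 and 454 bp from a RefSeq TSS. Those at Ascl2, Scd2 and Chd2 had no RefSeq TSS within 1 kb. The 3 regions with T-MARE as their most complete element had lower signals, 30.5 at Ankrd33b, 26.2 at Irf2bp2 and 22.3 at Pigyl, and none of them overlapped the lists of both replicates. The 34 regions with a MAF-type element had a median signal of 39.4 (4.83 to 301). Of them, 17 (50%) overlapped both lists, against 35.4% of the whole list.

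Over the regions whose letters were read (chromosome 18 left out), the median distance from the nearest element to the summit was 9.5 bp for 18 regions with an ARE core, 27 bp for 22 with a MAF core and 11 bp for 11 with an AP-1 element, in a search that reached 50 bp. Of the 18 regions with an ARE core, 16 had one within 25 bp and 7 had one that held a CpG. Of the 22 with a MAF core, 9 had one within 25 bp. With the search ended at 25 bp, the MAF core was at 11.1% of the summits, against 3.09% of their flanks, and did not pass the test (Fisher's exact test, adjusted p = 0.111). The composite element was at 2 of 41 regions at or above the median signal and at 0 of 40 below it, which allows up to 7.5% (Fisher's exact test, p = 0.494), so no difference by signal was detectable with so few.

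The 28 regions that were neither at a tRNA gene nor held a MAF-type element had mostly low signal. Their median signal was 19.04 (5.47 to 195), and 14 were in the weakest 25% of the list. The lists of both replicates were overlapped by 5 of the 28 (17.9%), against 35.4% of the whole list. An AP-1 element was found at 5 of the 28, against 37.8% of the whole list, so it was not a particular trait of this group. Those 5 included Bicdl1 and Nlgn3, the strongest of the group. A region with a signal of 74.2 in an intron of a noncoding gene near Dll4 and one of 58.4 near Klrb1b had neither kind of element.

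In composition, the 81 regions had a median GC of 56.4% and a median CpG ratio of 0.695, both of which the rule set. The summit of 77 lay inside a run of 200 bp windows that met the same limits, with a median run length of 1112 bp (574 to 5519). The name orphan island holds for only some of them. A RefSeq TSS, which the rule did not use, was within 1 kb of 19 summits, a GENCODE TSS was inside the run of 14, and a tRNA gene was at 24. At least 1 of these applied to 48 regions and none to 33. The 2 regions near Klrb1c had a near-identical copy elsewhere in the genome.

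**Figure D5:**
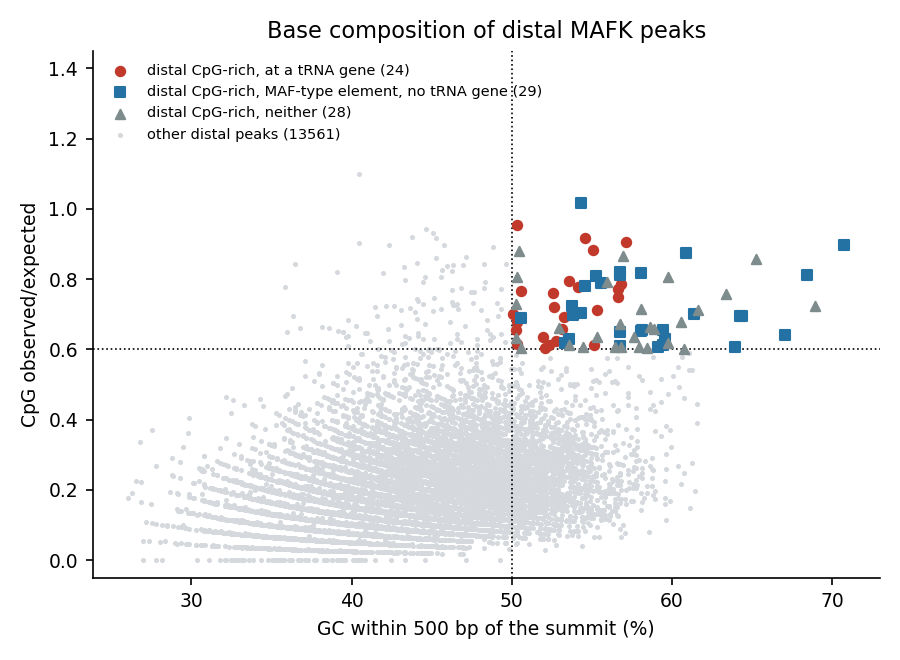
GC share (percent) and CpG observed/expected ratio of the 1001 bp around each summit, for the 81 distal CpG-rich regions by kind and the 13561 other distal regions. Dotted lines mark the limits of 50% and 0.6, and the regions at tRNA genes stay at or below 57.1% GC.

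Regions on either side of the limits are given as a description. Just inside the GC limit were Eef2k with 50.05% GC and a signal of 86.1, Abt1 with 50.2% and 23.9, and Tmem44 with 50.2% and 40.8. Just outside it were Shf with 49.6% and a signal of 59.3, Epcam with 49.5% and 14.9, and Trps1 with 49.4% and 17.3. Just inside the CpG limit were Kdm5b with a ratio of 0.6001 and a signal of 11.8 and C87436 with 0.604 and 17.6. Outside it were Ltbp4 with 0.598 and a signal of 16.7, Dmrt3 with 0.591 and 19.4, and another region near Azin1 with 0.583 and 33.6. At the distance limit, Phf21b at 1023 bp, Nfe2l3 at 1056 bp and Scrt1 at 1058 bp were inside, while Nipbl at 982 bp, Ell at 975 bp and Sox12 at 968 bp were not.

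These regions were found close to genes. The median distance to any TSS was 4238 bp, against 12593 bp for other distal regions. Of the 81, 20 were 1 to 2 kb from a TSS, 37 were 2 to 10 kb, 22 were 10 to 50 kb and 2 were farther, a share of 2.47% over 50 kb against 14.3% of other distal regions. Introns held 26 (32.1%), against 51.5% of other distal regions (odds ratio 0.446, 0.279 to 0.712, Fisher's exact test, p = 5.05e-04). Of the whole list, 55.9% of summits lay inside a gene, a share that counts exons too. Without tRNA summits the intronic shares of the 2 distal classes were 43.9% and 51.9% (odds ratio 0.723, Fisher's exact test, p = 0.234), and 23 of the 24 tRNA regions were intergenic. The summit base was repeat-masked in 6 (7.41%), against 17.5% of other distal regions and 16.4% of the list (odds ratio 0.377, 0.164 to 0.867, Fisher's exact test, p = 0.0176). That call was lost in 8 of the 10 other settings tried.

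Another summit was within 10 kb of 49 of the 81 (60.5%), against 23.6% of other distal regions and 25.6% of the list (odds ratio 4.97, 3.18 to 7.77, Fisher's exact test, p = 1.71e-12). Within 1 kb the counts were 29 (35.8%) against 6.42% (odds ratio 8.13, Fisher's exact test, p = 1.11e-14), a distance added after the values had been seen. Of CpG-rich promoter regions, 40.7% had another summit within 10 kb (odds ratio 2.23, Fisher's exact test, p = 8.44e-04) and 23.2% within 1 kb (odds ratio 1.85, Fisher's exact test, p = 0.0143). Of the 153 other distal regions at tRNA genes, 138 had one within 10 kb and 75 within 1 kb. With regions at tRNA genes left out of both classes, the share within 10 kb was 57.9% against 22.8% (odds ratio 4.66, Fisher's exact test, p = 1.33e-08). There the neighbour could still be a tRNA summit, since neighbours were counted over the whole list. With 1 summit per 1 kb and neighbours counted anew, the share was 40.3% against 18.5% (odds ratio 2.97, Fisher's exact test, p = 9.87e-05). That setting kept the summits at tRNA genes, and no setting left them out both as regions and as neighbours. Chromosome 11 held 11 of the regions, chromosome 7 held 9, chromosomes 1 and 5 held 8 each, X held 4 and chromosome 12 held 0.

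By the nearest protein-coding gene, signalling ligands and receptors were near 8 of the 81 regions (9.88%), against 1.19% of other distal regions and 1.11% of the whole list. These shares are given as a description because the lists were chosen with earlier results known. The highest signals among the 8 were at Dll4 (74.2) and Dll1 (40.8), which encode Notch ligands, and at Wnt11 (48.3) and Efna5 (31.1), which encode a Wnt ligand and an ephrin. The others were a second region near Wnt11 and 1 each near Wnt10a, Efnb1 and Fzd9, a Wnt receptor gene. The regions near Wnt11 and Wnt10a were at tRNA genes. Homeobox and other developmental factors were nearest to 2 regions, Irx5 (signal 30.7) and Pou3f3 (24.96), or 2.47% against 2.29% of other distal regions and 2.10% of the whole list. Ascl2, an imprinted gene for a factor of the placenta, was nearest to 1 region with a signal of 64.5 in its intron, and Gclc was the only antioxidant gene. Each is 1.23% of the 81, against 0.221% and 0.236% of other distal regions for the imprinted and antioxidant lists. Over the whole list those shares were 0.25% and 0.34%. No gene of the pluripotency or Polycomb lists was nearest to any of the 81, which allows a share of up to 3.70% for each. Other distal regions had 0.516% and 0.317%, and the whole list 0.475% and 0.339%, so no difference was detectable with 81 regions.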

How the data were processed

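MAFK ChIP-seq of ES-E14 cells was analysed from region lists on mm10, and the sources used here do not name the aligner or peak caller. Per the labels' notes deposited beside the lists, a first run gave relaxed lists for each replicate and the pool, and from them an optimal and a conservative list by irreproducible discovery rate (IDR). A second run, from other alignments, gave each replicate's own thresholded list. The deposited signal value and IDR score are scores of the authors, and the deposited significance column is a −log10 q-value by the region format.

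Summits were annotated with GENCODE vM21, RefSeq genes and tRNA genes, and the GRCm38 sequence, whose soft-masking gave the repeats. Elements of 19 families, which include a reversed and a shuffled control sequence, were searched in both orientations up to 50 bp from the summit and in flanks 300 bp away. Lists overlapped when they shared at least 1 bp. Shares were compared by Fisher's exact test, two-sided, with Benjamini-Hochberg adjustment over the families or over all sequences of 6 bp. Near-identical copies were sought with BLAST 2.17.0 (at least 90% identity over 80% of 201 bp). Scripts (Python 3.11.15, scipy 1.17.1) were tested on simulated data.

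The regions, element families and gene lists were chosen with earlier results of these data known. The text names the 10 regions of highest signal that overlap both replicates' lists, the 3 on either side of each limit, up to 4 per gene list and the 10 sequences of 6 bp of smallest p, except 1 region inside the CpG limit that is not reported here. Other named regions, the letters of box B, the tRNA and the 1 kb comparisons and 2 alternatives were chosen after the values were seen. Alternatives were other lists, thresholds and windows.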

Additional observations from a re-analysis of the deposited data

How the results depend on the processing

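With 81 regions, differences of a few percent are not detectable, and depth is unknown. The composite element, MAF core, ARE core, T-MARE and AP-1 stayed lower than at other distal summits and past the threshold in each of 13 alternatives, and the tRNA share stayed higher in each of 10 (odds ratio 18.1 to 61.8, Fisher's exact test). Another summit within 10 kb kept its call in 11 of 11 (odds ratio 2.97 to 7.11).

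The number of regions was 33 to 55 in the lists of single replicates (without replicate 2 and without replicate 1), 33 among regions in both replicates' lists, 45 in the strongest 50%, 32 with GC of at least 0.55 and a CpG ratio of at least 0.65, and 38 over 5 kb from every TSS. The families that passed against other distal summits numbered 10 with an element window of 100 bp. Those that passed against flanks numbered 1 under the stricter composition and 5 with composition taken within 250 bp. Against flanks, the MAF core lost its call in 2 of 14 alternatives, and the ARE core and AP-1 in 1 each.

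The odds ratio of the strongest 25% was 1.12 to 1.32 in the lists of single replicates, 1.54 under the stricter composition, 1.36 with composition within 250 bp, 1.23 over 5 kb from a TSS, 1.56 without repeat-masked summits and 1.64 with 1 summit per 1 kb, none past 0.05. It was below 1 for regions in both replicates' lists (0.675), in the strongest 50% (0.982) and without tRNA summits (0.867). Overlap with both lists was below 1 over 5 kb from a TSS (0.947) and without tRNA summits (0.842), never past 0.05. The intronic share lost its call under the stricter composition (0.568) and without tRNA summits (0.723). Repeat-masked summits lost theirs in the lists of single replicates (0.507 to 0.594), in both lists (0.639), in the conservative list (0.471), in the strongest 50% (0.481), under the stricter composition (0.315), with composition within 250 bp (0.535) and without tRNA summits (0.450). For these the cause was not tested. No paired analysis of groups was possible because the labels give 1 group only. Summits could have been paired with their own flanks, but those tests counted the windows as separate. Overlap with both replicates' lists was not run on the replicates' own lists.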
